A study of Mus musculus with 16 samples.

Results

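Untreated immortalised macrophages were compared with cells of the same line given LPS and collected without any gate, across all genes, in 8 of the 16 libraries of a mouse RNA sequencing series (4 of LPS-treated cells and 4 of untreated cells). The 8 libraries were assigned to the groups from their labels. The cells were iBMDM MyD88-AGF, a line of immortalised bone-marrow-derived macrophages with the genotype MyD88-AGF WT, and both groups carried that genotype. The treated group received lipopolysaccharide (LPS) at 10 ng/mL for 6 h, and the control group received none. Both kinds of cell were run through the flow cytometer ungated, after responder and bystander cells had been sorted by side scatter from LPS-treated cells, and the same number of cells was taken for each sample. The labels give 1 cell line and replicate numbers, and do not say that replicates were separate cultures, so a p-value here speaks only of how far these samples scatter, and that scatter could be technical. The ungated treated sample is called the LPS pool below; it holds all cells of the treated culture, whatever their side scatter.

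LPS is the glycolipid of the outer membrane of Gram-negative bacteria. It is handed by CD14 to the complex of TLR4 and MD-2 on the macrophage surface. From there MyD88 and the IRAK kinases lead to NF-kappaB and AP-1, which drive cytokine and chemokine genes, while TRIF leads from endosomes to IRF3 and interferon beta. Secreted interferon acts back on the cells through a complex that includes STAT2 and IRF9 and binds the interferon-stimulated response element (ISRE) of antiviral genes. Feedback inhibitors made in the same cells later restrain these routes.

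Promoter sequences are shown first, for 3 genes that rose and 2 that fell. They hold short motifs that were counted in the gene classes and lists described below. Each is the 250 bases before the gene start in RefSeq (GRCm38.p6), written 5′ to 3′ along the strand of the gene. Il6 (chr5:30012864-30013113, + strand) and Cxcl10 (chr5:92348890-92349139, - strand) encode a cytokine and a chemokine. Ifit1 (chr19:34640639-34640888, + strand) encodes an antiviral protein. Mki67 (chr7:135716380-135716629, - strand) encodes the proliferation marker Ki-67, and Mcm5 (chr8:75109259-75109508, + strand) a subunit of the replicative helicase. Capitals mark matches on either strand, to an NF-kappaB string (GGG, any 2 bases, TTTCC) and TGANTCA (AP-1) in Il6, to an ISRE string (GAAA, any 2 bases, GAAA) and TGANTCA in Cxcl10, to the ISRE string in Ifit1, to TTTGAA (the core of the cell cycle homology region, CHR-like) and CCAAT in Mki67, and to TTTNNCGC (E2F-like) in Mcm5, where 2 matches on opposite strands overlap. A match is a string of letters and not a measured binding site.
Il6: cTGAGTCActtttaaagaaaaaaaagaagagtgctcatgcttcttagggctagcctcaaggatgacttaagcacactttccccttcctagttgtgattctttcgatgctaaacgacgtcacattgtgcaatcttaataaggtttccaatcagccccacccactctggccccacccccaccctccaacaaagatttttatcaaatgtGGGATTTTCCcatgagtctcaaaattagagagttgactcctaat
Cxcl10: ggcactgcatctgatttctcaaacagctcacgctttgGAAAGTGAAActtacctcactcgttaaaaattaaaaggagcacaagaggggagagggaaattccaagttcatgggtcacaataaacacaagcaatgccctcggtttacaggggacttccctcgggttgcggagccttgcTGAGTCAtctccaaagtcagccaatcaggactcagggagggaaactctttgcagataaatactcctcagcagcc
Ifit1: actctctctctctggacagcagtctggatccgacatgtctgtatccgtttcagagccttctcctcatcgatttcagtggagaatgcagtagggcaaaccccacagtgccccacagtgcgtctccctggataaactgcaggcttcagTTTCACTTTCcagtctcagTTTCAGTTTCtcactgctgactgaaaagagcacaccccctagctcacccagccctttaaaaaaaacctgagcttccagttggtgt
Mki67: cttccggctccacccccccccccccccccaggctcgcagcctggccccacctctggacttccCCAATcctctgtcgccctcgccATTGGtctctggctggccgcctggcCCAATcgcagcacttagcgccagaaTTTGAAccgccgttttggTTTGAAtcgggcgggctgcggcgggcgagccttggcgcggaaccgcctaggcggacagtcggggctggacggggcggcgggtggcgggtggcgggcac
Mcm5: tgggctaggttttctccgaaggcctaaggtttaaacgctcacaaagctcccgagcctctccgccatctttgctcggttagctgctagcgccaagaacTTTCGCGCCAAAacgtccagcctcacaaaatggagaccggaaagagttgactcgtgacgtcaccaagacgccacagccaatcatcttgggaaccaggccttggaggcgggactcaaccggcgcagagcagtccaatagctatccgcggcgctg

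Across all genes the response was broad in number and steep for a minority of genes. Of 12589 genes tested, 4292 (34.1%) were higher and 4757 (37.8%) lower in the LPS pool at an adjusted p under 0.05 (edgeR quasi-likelihood test on raw counts, two-sided, Benjamini-Hochberg over all genes), 71.9% in all. Most calls were small, since 81.3% of them were under 2-fold. A total of 1224 genes (9.72%) rose at least 2-fold and 471 (3.74%) fell at least 2-fold; scaling by library totals alone turned this balance round, to 901 raised and 1307 lowered. Above that size the response was lopsided, with 539 genes raised and 18 lowered at least 4-fold, and 187 raised and 1 lowered at least 16-fold. That 1 gene, chosen for mention after its values were seen, was Col2a1, a cartilage collagen, at 0, 0.047, 0.062 and 0 CPM in the pool and 1.903, 0.99, 0.463 and 1.503 CPM in untreated cells (adjusted p = 0.000561, quasi-likelihood test), so that its fold rests on few reads. All 4 pool libraries lay above all 4 untreated libraries for 3899 of the tested genes (31.0%), and below them for 4273 (33.9%), whether called or not.

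**Figure D1:**
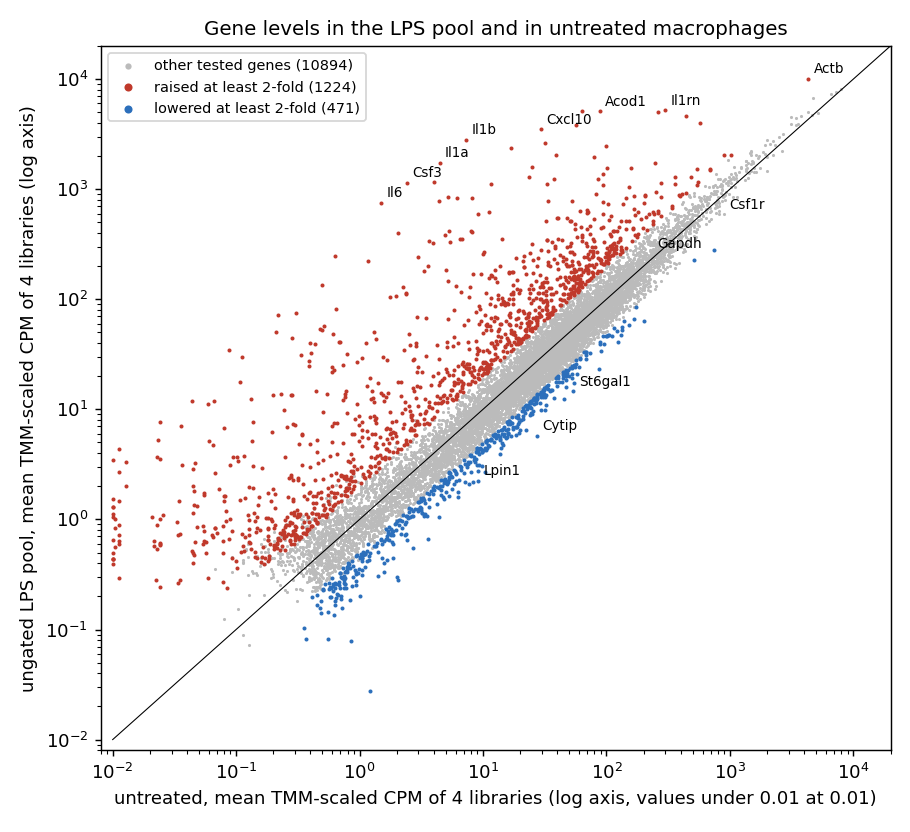
Mean TMM-scaled CPM (counts scaled to the size of the library) of each of the 12589 tested genes in untreated libraries (x axis, log scale) and in the LPS pool (y axis, log scale), 4 libraries each; red, 1224 genes raised at least 2-fold; blue, 471 genes lowered at least 2-fold; grey, the other tested genes; line, equal levels. The red points reach far above the line at low untreated levels, while most blue points lie closer to it, with 18 of them at least 4-fold below.

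The libraries held 15287344 to 22655307 counts in the LPS pool and 16638528 to 20497100 in untreated cells. A spread of 3.59% (median coefficient of variation over the pool libraries, for 853 genes raised at least 2-fold with a pool mean of at least 5 CPM) lay far below most of the changes described. The macrophage label was checked against 10 markers, all of which were read in every library. Their summed levels were 4470 to 4520 CPM in the pool and 4230 to 4260 CPM in untreated cells. All marker sums given here are CPM of library totals, without TMM scaling. TMM factors were 0.9299 to 0.9375 in the pool and 1.1684 to 1.1727 in untreated cells. TMM scaling would thus raise the pool sums and lower the untreated ones. Mertk, a receptor for dying cells, was close to absent at 12 to 43 reads. Among markers of other cells, 6 of 10 for lymphocytes (among them Cd3e, Cd3d, Cd8a, Nkg7 and Ncr1), Ly6g and S100a9 for neutrophils, Siglech and Cd209a for dendritic cells, and Epcam and Krt18 for epithelium were at 0 in all 8 libraries. The 8 neutrophil markers summed to 13.6 to 14.1 CPM in the pool against 2.0 to 2.47 CPM in untreated cells, most of it from Csf3r, the receptor for granulocyte colony-stimulating factor. The 8 dendritic cell markers summed to 5.56 to 6.44 CPM against 2.65 to 4.21 CPM, and the 7 epithelial and endothelial markers to 2.95 to 4.15 CPM against 2.1 to 3.5 CPM. Pool libraries 3 and 4 and untreated library 1 held transcripts of neurons and glia, at 9.25, 13.2 and 10.6 CPM over 16 markers against 0.42 to 0.81 CPM in the other 5. The whole list of 20, which holds the myelin gene Mbp, summed to 46.1 to 64.1 CPM in the pool and 105 to 130 CPM in untreated cells. Fibroblast markers summed to 104 CPM in pool library 3 and to 2.96 to 36.7 CPM in the other 7, and lymphocyte markers to 0.971 to 1.18 CPM in the pool and 1.63 to 2.16 CPM in untreated cells. The part of these transcripts in the results was not tested. With those 3 libraries left out, together with the sorted libraries that stood apart in the same way, 4124 genes were higher and 4384 lower.

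Induced transcripts filled a large share of the treated cells' messenger RNA. The 1224 genes raised at least 2-fold held 20.2, 20.2, 20.3 and 20.2% of all counts in pool libraries 1 to 4 and 5.24, 5.24, 5.23 and 5.21% in untreated libraries 1 to 4. The 187 genes raised at least 16-fold held 6.32 ± 0.0538% in the pool and 0.174 ± 0.00413% in untreated cells (SD, n = 4 each). The gain of 15.008 points was spread over many genes: 15 genes supplied 4.90 points of it, led by Rsad2 (0.468), Acod1 (0.465), Il1rn (0.452), Ccl3 (0.441) and the cytoskeletal gene Actb (0.432). The 4286 genes lowered under 2-fold held 22.1 ± 0.193% in the pool and 34.7 ± 0.0611% in untreated cells. These classes were drawn by the contrast itself, so the shares describe it and carry no test. Scaling by library totals alone, which takes no account of a shift in composition, moved the median log2 fold change of all genes from -0.03 to -0.36, and gave 2216 raised and 8027 lowered genes in place of 4292 and 4757, 21.6% of calls raised. Small changes are therefore relative to the TMM scaling.

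**Figure D2:**
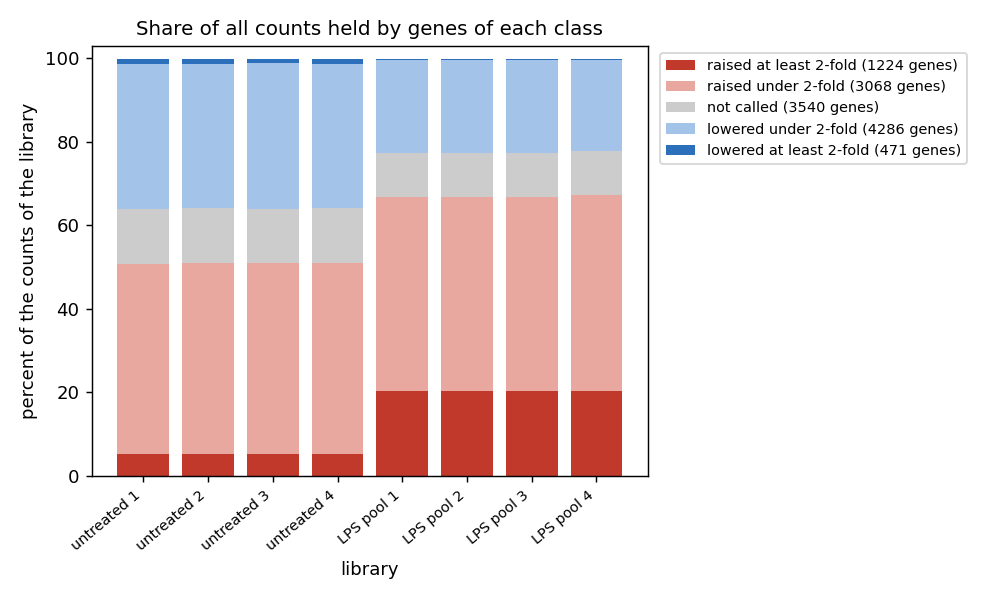
Percent of the counts of each library (y axis) held by genes raised at least 2-fold, raised under 2-fold, not called, lowered under 2-fold and lowered at least 2-fold, for 4 untreated and 4 LPS pool libraries (x axis). The dark red share is 5.21 to 5.24% in untreated libraries and 20.2 to 20.3% in the pool.

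Most cytokine ligands rose. All 7 tested members of the interleukin-1 family were higher, with a median log2 fold change of 4.19, against a median of -0.03 over all genes, and with at least 2-fold for each of the 7. Il1a, an alarmin held in the cell until released, stood at 1727, 1744, 1748 and 1748 CPM in pool libraries 1 to 4 and at 4.03, 4.72, 5.14 and 3.92 CPM in untreated libraries 1 to 4. The lowest pool value was far above the highest untreated one. The log2 fold change was 8.62 ± 0.382 (SE derived from the F statistic), with adjusted p = 8.08e-11 in the quasi-likelihood test. That SE carries the spread shared by the 4 groups of the fit. Il1rn, which encodes the antagonist of the interleukin-1 receptor, was already read in untreated cells at 303, 294, 303 and 303 CPM and reached 5268, 5271, 5152 and 5236 CPM in the pool, 17.4-fold higher (adjusted p = 3.39e-82, quasi-likelihood test). Il1f9, which encodes interleukin-36 gamma, rose 18.2-fold to 13.8 ± 1.1 CPM (SD, n = 4).

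A further list held the IL-6, IL-12 and IL-10 families with a few interleukins outside them. Of its 13 tested members 11 rose, 1 fell and 1 did not pass the test (median log2 fold change 3.30). Il6 stood at 739, 729, 742 and 798 CPM in the pool and at 1.31, 1.395, 1.65 and 1.59 CPM in untreated cells. The groups were far apart, and pool library 4 was the highest. Il27, a subunit of interleukin-27, went from 0.453, 0.54, 0.411 and 0.584 CPM to 132, 137, 134 and 142 CPM (log2 fold change 8.07 ± 0.096, adjusted p = 1.91e-39, quasi-likelihood test). Ebi3, which pairs with it, rose 7.56-fold to 22.03 ± 2.36 CPM. Lif, a ligand of the same receptor family as interleukin-6, rose 9.87-fold to 12.8 ± 0.92 CPM. The anti-inflammatory cytokine Il10 reached 3.52, 4.46, 3.54 and 3.38 CPM, against 0.045, 0.225, 0.051 and 0.083 CPM in untreated cells, and replicate 2 was the highest of the pool. Il12b, the shared subunit of IL-12 and IL-23, was read at 0.462, 0.57, 0.807 and 1.06 CPM in the pool, with a single untreated library above 0 (adjusted p = 1.89e-09, quasi-likelihood test). Its partner Il12a had 0 reads in all 8 libraries. Il16, of none of these families, fell by 0.27 on the log2 scale (adjusted p = 0.000131, quasi-likelihood test).

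Growth and colony-stimulating factors followed, with 12 of 15 raised, 1 lowered and 2 not passing the test. Csf3, which encodes granulocyte colony-stimulating factor, stood at 1117, 1137, 1134 and 1185 CPM in the pool and 2.54, 2.43, 2.57 and 2.09 CPM in untreated cells. Csf2, for granulocyte-macrophage colony-stimulating factor, was at 11.3, 11.2, 10.1 and 11.96 CPM in the pool and at 0, 0, 0.154 and 0.083 CPM in untreated cells (adjusted p = 7.3e-33, quasi-likelihood test). Both genes were close to silent without LPS. Edn1, the precursor of the vasoconstrictor endothelin-1, rose from 0.589, 0.36, 0.566 and 0.459 CPM to 53.3, 50.3, 51.02 and 54.3 CPM (adjusted p = 3.15e-54, quasi-likelihood test). Gdf15, a stress-induced cytokine, rose 4.88-fold, and Vegfb, a growth factor of the VEGF family, fell by 0.75 on the log2 scale.

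In the TNF superfamily 5 of 10 tested ligands rose, 2 fell and 3 did not pass the test. Of all genes, 34.1% rose and 37.8% fell. Tnfsf10, which encodes the death ligand TRAIL, went from 0.77, 0.63, 0.617 and 0.376 CPM to 22.1, 20.8, 20.7 and 23.8 CPM, 36.3-fold (adjusted p = 5.17e-45, quasi-likelihood test). Lta, which lies beside Tnf and encodes lymphotoxin alpha, rose 11.5-fold to 9.25 ± 0.727 CPM. Tnfsf12, for the ligand TWEAK, fell by 0.51 on the log2 scale. Of 9 interferon genes listed, Ifnb1 was the single one that passed the filter on low counts: it was at 0.924, 0.997, 1.37 and 1.06 CPM in the pool and above 0 in 1 untreated library, at 0.103 CPM (adjusted p = 7.4e-11, quasi-likelihood test). The other 8 had 0 reads in all 8 libraries.

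All 19 tested chemokines rose, 18 of them at least 2-fold, with a median log2 fold change of 5.17. The inflammatory chemokines Ccl2, Ccl3, Ccl4 and Ccl5, which attract monocytes and T cells, all rose. Ccl2 and Ccl3 stood at 444 ± 6.92 and 259.5 ± 5.71 CPM in untreated cells and were raised 10.3-fold and 19.5-fold, and Ccl5 rose 166-fold from 5.18 ± 0.449 CPM. Ccl17, a ligand of CCR4, went from 0.136, 0.135, 0.051 and 0.125 CPM to 29.8, 28.3, 31.2 and 31.5 CPM. The neutrophil attractant Cxcl2 rose 83.6-fold to 2629 ± 66.2 CPM, but the related Cxcl1 was below the filter on low counts, with 3, 1, 2 and 0 reads in the pool libraries. Cxcl11, a ligand of CXCR3, was at 50.7, 49.7, 50.8 and 50.3 CPM in the pool and 0.091, 0.225, 0.36 and 0.167 CPM in untreated cells (log2 fold change 7.89 ± 0.118, adjusted p = 4.96e-55, quasi-likelihood test).

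**Figure D3:**
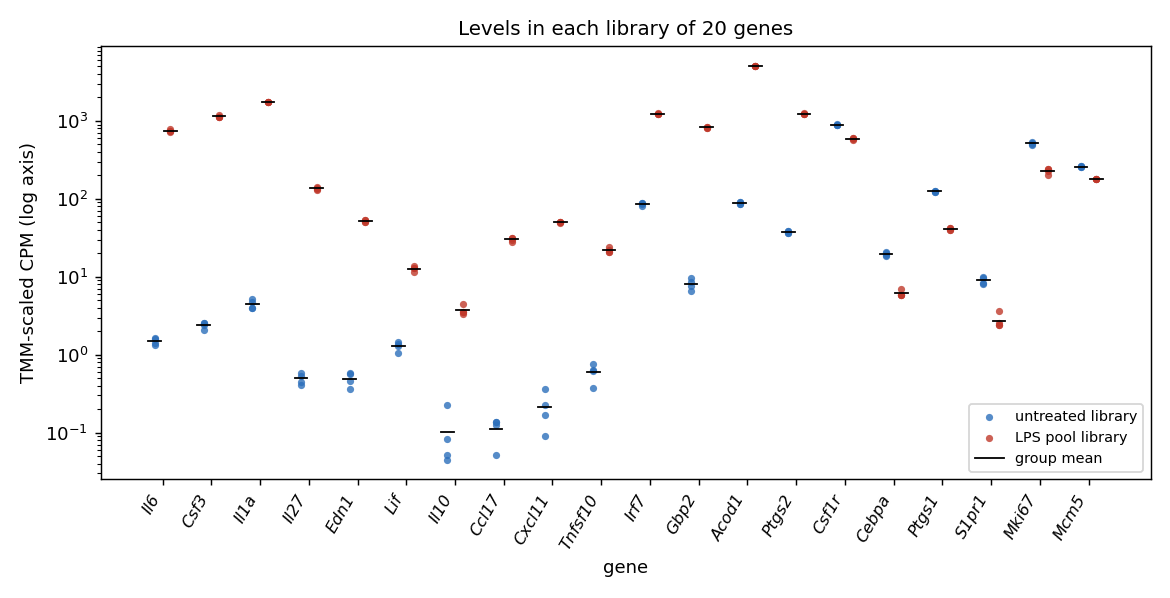
TMM-scaled CPM (y axis, log scale) of 20 genes (x axis) in each untreated (blue) and LPS pool (red) library; black lines are group means, 4 libraries each. The pool points of the first 14 genes lie above the untreated points, those of the last 6 (Csf1r, Cebpa, Ptgs1, S1pr1, Mki67 and Mcm5) below them, with no overlap for any of the 20. These genes were picked for display, and the rule for naming the largest changes itself asked for no overlap. Of all tested genes, 31.0% lay wholly above and 33.9% wholly below in the pool.

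Of 35 receptors for cytokines tested 22 were raised and 12 lowered, the falls near the 37.8% of all genes. Cd40, the costimulatory receptor engaged by T cells, went from 3.26, 4.68, 3.09 and 3.55 CPM to 343, 334, 330.5 and 344 CPM, 92.1-fold (adjusted p = 2.26e-32, quasi-likelihood test). Its relatives in the TNF receptor family rose too: Tnfrsf8 (CD30) 46.3-fold, the death receptor Fas 19.4-fold, and Tnfrsf1b, a receptor for TNF, 14.5-fold to 1367 ± 28.1 CPM. Receptors that fell included Il1rl1, the interleukin-33 receptor, 3.17-fold, Il6ra, the ligand-binding chain for interleukin-6, from 28.4, 27.6, 27.2 and 26.5 to 12.4, 12.6, 12.8 and 12.7 CPM, and Il18rap, a chain of the interleukin-18 receptor, 2.14-fold. Csf1r, the receptor for the macrophage growth factor CSF1, was 1.51-fold lower, at 592 ± 14.2 CPM in the pool and 894 ± 11.6 CPM in untreated cells (SD, n = 4 each).

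Sensors of microbes rose in 24 of 28 cases and fell in 2 (Tlr4 and Tlr5). The RNA sensors Ifih1 (MDA5), Dhx58 (LGP2) and Tlr3 rose 14.8-fold, 8.61-fold and 14.3-fold. Nod1, which senses fragments of bacterial cell walls, went from 3.398, 3.599, 2.16 and 2.34 CPM to 37.2, 38.6, 37.4 and 38.1 CPM, and Tlr2, for bacterial lipoproteins, rose 2.54-fold. The LPS receptor gene Tlr4 moved the other way, from 52.4, 50.5, 52.9 and 51.6 CPM to 34.9, 31.7, 29.7 and 31.2 CPM, and fell by 0.70 on the log2 scale (adjusted p = 1.05e-22, quasi-likelihood test). Its co-receptor Cd14 rose 3.98-fold. Tlr5, the flagellin receptor, named after its values were seen, was at 0.462, 0.665, 0.559 and 0.493 CPM in the pool and 2.85, 2.75, 2.62 and 2.71 CPM in untreated cells.

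Of 28 receptors for chemoattractants and small mediators, 19 rose, 4 fell and 5 did not pass the test. Fpr1 and Fpr2, receptors for formylated bacterial peptides, stood at 6.53, 7.17, 7.51 and 5.63 and 11.3, 11.1, 12.4 and 13.4 CPM in the pool, and at no more than 0.181 and 0.091 CPM in any untreated library. Ccrl2, a receptor that presents the attractant chemerin, rose 56.99-fold to 129 ± 2.63 CPM, and the adenosine receptor Adora2b 28.2-fold. S1pr1, a receptor for the lipid sphingosine 1-phosphate, fell 3.31-fold; pool library 3, at 3.60 CPM, was the highest of the pool and still under the lowest untreated library at 8.14 CPM. C5ar2, a receptor for complement C5a, was 1.88-fold lower.

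Of 25 receptors for uptake 13 were raised and 9 lowered, the falls near the 37.8% of all genes, with a median log2 fold change of 0.14, which turned to -0.18 when libraries were scaled by their totals alone. The Fc receptors Fcgr1, Fcgr4 and Fcgr2b, which bind antibody, rose 8.71-fold, 7.62-fold and 6.25-fold, and the scavenger receptor Msr1 rose 6.26-fold to 436 ± 9.06 CPM. Trem2, a lipid-sensing receptor, fell from 219, 232, 232 and 226 CPM to 116, 117, 116 and 124 CPM. Gas6, a bridge between dying cells and their receptors, and the lectin Clec10a were 2.04-fold and 1.72-fold lower. Molecules of costimulation and adhesion rose in 21 of 26 cases, with a median log2 fold change of 1.66. Among them were the activation marker Cd69 (111-fold), Slamf7 (46.2-fold), the galectin Lgals9 (26.4-fold) and Cd274, which encodes the checkpoint ligand PD-L1 (17.7-fold). Vsir, the checkpoint protein VISTA, was 1.91-fold lower.

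In the TLR4 route itself 16 of 27 genes were higher, 9 of them at least 2-fold, and 6 were lower. This stands beside 34.1% and 37.8% of all genes. The median log2 fold change of the list was 0.25, which turned to -0.07 under library totals alone. Those that rose most were the inhibitory kinase homologue Irak3 (5.55-fold), the kinase Ikbke (5.195-fold) and the ubiquitin ligase Peli1 (4.35-fold). The adaptor Myd88 stood at 212, 207, 201 and 196 CPM in the pool and 111, 112, 109 and 113 CPM in untreated cells, 1.84-fold higher. Traf3 and Map3k7, a signalling adaptor and a kinase of the route, were 1.32-fold and 1.305-fold lower.

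Inhibitors were among the raised genes throughout. Of 24 inhibitors of NF-kappaB and ubiquitin editors, 21 rose and 1 fell. Nfkbia, which encodes the inhibitor IkappaB alpha, went from 53.6, 52.2, 51.2 and 50.7 CPM to 501, 508, 511 and 521 CPM, Tnfaip3, for the ubiquitin editor A20, rose 8.27-fold, the adaptor Traf1 24.9-fold, and Nfkbiz, a nuclear IkappaB protein, 13.9-fold. Cyld, a deubiquitinase, was the one that fell, 1.21-fold. Of 27 genes for mRNA decay, cytokine signal suppression and MAP kinase phosphatases, 23 rose and 3 fell. Socs3, the inhibitor of interleukin-6 signalling, stood at 249.8, 250.5, 246 and 230.1 CPM in the pool and 3.53, 2.56, 3.04 and 2.75 CPM in untreated cells (82.3-fold, adjusted p = 4.92e-31, quasi-likelihood test). Cish rose 25.5-fold, the RNase gene Zc3h12a 11.03-fold and Zfp36, which binds AU-rich cytokine transcripts, 10.4-fold. Zfp36l2, a relative of Zfp36, was 1.29-fold lower.

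Transcription factors of the inflammatory and interferon routes rose in 15 of 19 cases. Irf7, the amplifier of type I interferon genes, went from 84.8, 87.9, 88.01 and 80.4 CPM to 1235, 1250, 1210 and 1223 CPM (14.4-fold, adjusted p = 1.49e-76, quasi-likelihood test). Stat2, which carries the interferon signal, rose 10.5-fold, and Irf1 4.62-fold. In the AP-1, EGR and KLF list 26 of 36 rose and 4 fell. Batf2 stood at 31.3, 32.1, 31.2 and 28.9 CPM in the pool and 0.227, 0.315, 0.309 and 0.501 CPM in untreated cells, Myc rose 16.9-fold to 12.9 ± 0.965 CPM, the early response gene Ier3 7.11-fold, the stress factor Atf3 5.81-fold and Hif1a, the oxygen-regulated factor, 2.16-fold.

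Factors that mark macrophage identity were lowered in 14 and raised in 10 of 30 cases, shares near the 37.8% and 34.1% of all genes, with a median of -0.04 beside -0.03. Cebpa, a factor of myeloid differentiation, fell from 18.8, 19.3, 20.8 and 20.2 CPM to 7.05, 5.89, 5.897 and 5.77 CPM. Pparg, the lipid-sensing nuclear receptor, and Etv5 were 2.303-fold and 2.34-fold lower. Maf moved the opposite way, from 4.03, 4.59, 4.68 and 4.17 CPM to 25.8, 27.5, 30.2 and 30.3 CPM (6.501-fold, adjusted p = 3.39e-39, quasi-likelihood test).

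Interferon-stimulated genes rose throughout. All 51 listed antiviral genes were tested, all 51 rose, and all 51 rose at least 2-fold, with log2 fold changes from 1.02 to 7.95 and a median of 3.16. Rsad2, which encodes viperin, stood at 5046, 5037, 5136 and 5194 CPM in the pool and 65.1, 62.1, 70.5 and 56.3 CPM in untreated cells. Ifit1 went from 23.02, 23.8, 26.5 and 20.4 CPM to 1264, 1268, 1310 and 1354 CPM, and the ubiquitin-like modifier Isg15 rose 55.8-fold to 624 ± 30.5 CPM. Slfn1 and Slfn4, of the Schlafen family, rose 247-fold and 173-fold, and Ifi44 77.9-fold. All 17 tested GTPases of the GBP and IRG families, which attack the vacuoles of intracellular microbes, rose, with a median log2 fold change of 4.99. Gbp2 stood at 822, 841, 822 and 841 CPM in the pool and 7.66, 8.504, 9.67 and 6.55 CPM in untreated cells (adjusted p = 1.72e-66, quasi-likelihood test), and Gbp5, Gbp6 and Gbp3 rose 199-fold, 111-fold and 77.3-fold. Family members of near-identical sequence can share reads, so the split between single Slfn or Gbp genes is less certain than their sum.

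Antigen presentation by MHC class I rose in 20 of 23 genes and fell in 2, with a median log2 fold change of 1.94. Tap1, of the peptide transporter, went from 23.9, 26.4, 26.03 and 24.3 CPM to 325, 319, 320.0 and 303 CPM. The immunoproteasome subunits Psmb9 and Psmb10 rose 9.25-fold and 7.901-fold, and the class I gene H2-T22 9.41-fold. In the class II list 4 of 7 tested genes rose and 1 fell, beside 34.1% and 37.8% of all genes. Cd74, the invariant chain, rose 1.78-fold to 437 ± 3.85 CPM, and Ctss, the cathepsin that trims it, 1.56-fold.

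Of 15 lipid mediator genes 9 fell and 5 rose, the rises near the 34.1% of all genes. The cyclooxygenases moved in opposite directions. Ptgs2, the inducible enzyme, stood at 1233, 1249, 1238 and 1244 CPM in the pool and 39.1, 36.1, 39.2 and 36.1 CPM in untreated cells, 33.05-fold higher. Ptgs1, the constitutive enzyme, went from 126, 127, 123 and 122 CPM to 39.5, 39.4, 42.02 and 42.9 CPM, 3.05-fold lower (adjusted p = 9.65e-46, quasi-likelihood test). Ptges, which makes prostaglandin E from their product, rose 3.81-fold.

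Among genes of arginine, itaconate, tryptophan and NAD metabolism 14 of 20 rose and 5 fell. Acod1, which makes itaconate, went from 86.4, 90.8, 90.2 and 85.2 CPM to 5099, 5126, 5109 and 5058 CPM. Hdc, the enzyme that makes histamine, rose 153-fold, the uridine phosphorylase Upp1 126-fold and the arginine transporter Slc7a2 58.2-fold. Arg1, the arginase that competes with Nos2 for arginine, was at 0.404, 0.807, 0.931 and 1.13 CPM in the pool and 0.498, 0.225, 0.257 and 0.584 CPM in untreated cells. The groups overlapped, and the call (adjusted p = 0.0123, quasi-likelihood test) was lost without pool replicate 4 (adjusted p = 0.06) and without untreated replicate 2 (adjusted p = 0.0596).

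Glycolysis and hypoxia genes rose in 17 of 28 cases and fell in 7, beside 34.1% and 37.8% of all genes. Their median log2 fold change of 0.17 turned to -0.15 under library totals alone. The hexose transporter Slc2a6 rose 5.81-fold, the regulator Pfkfb3 2.52-fold and the glucose transporter Slc2a1 1.97-fold, while Pdk1 and Egln3, targets of the hypoxia factor in many cells, were 1.604-fold and 1.68-fold lower. Gapdh was 1.13-fold higher under TMM scaling and lower by 0.15 on the log2 scale under library totals alone. In the tricarboxylic acid cycle 5 of 25 genes rose and 13 fell, none by 2-fold, beside 34.1% and 37.8% of all genes. Idh1 and Idh3a, isocitrate dehydrogenases, were 1.59-fold and 1.31-fold lower.

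Sterol synthesis and uptake genes had 6 rises and 8 falls among 23, no more than the 34.1% and 37.8% of all genes. Dhcr7 and Stard4, for the last step of cholesterol synthesis and for sterol transport, were 1.87-fold and 1.701-fold lower. In the list of sterol efflux and lipid storage 12 of 24 rose and 8 fell, the falls again near the share of all genes. The fatty acid binding protein Fabp4 rose 4.46-fold and the acyl-CoA synthetase Acsl1 2.96-fold. Scd2, a desaturase, went from 765, 741, 749 and 742 CPM to 278, 281, 282 and 269 CPM, 2.697-fold lower, and Angptl4, an inhibitor of lipoprotein lipase, was 3.48-fold lower.

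For iron and zinc 11 of 18 rose and 6 fell, the falls near the 37.8% of all genes. The siderophore-binding protein Lcn2 and the ferroxidase Cp rose to 246 ± 6.06 and 29.1 ± 0.922 CPM from 0.638 ± 0.265 and 1.05 ± 0.207 CPM, Hp, for haptoglobin, rose 6.73-fold, and the ferrireductase Steap3 fell 2.75-fold. Of 25 genes that make or remove oxidants 21 rose and 3 fell. The mitochondrial superoxide dismutase Sod2 stood at 586, 599, 589 and 616 CPM in the pool and 92.9, 93.3, 94.8 and 94.2 CPM in untreated cells. Cybb, the catalytic subunit of the phagocyte oxidase, rose 4.23-fold, Prdx5 3.58-fold and the haem oxygenase Hmox1 3.09-fold. Gclc, the rate-limiting subunit of glutathione synthesis, was 1.96-fold lower.

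Genes of the inflammasome and of cell death rose in 21 of 30 cases and fell in 4. Casp4, the intracellular LPS sensor known in mouse as caspase-11, went from 7.34, 7.83, 7.77 and 8.02 CPM to 106, 105, 109.7 and 101 CPM. The survival gene Bcl2a1d and the necroptosis effector Mlkl rose 10.2-fold and 5.29-fold; Bcl2a1d has near-identical copies that can share its reads. Pmaip1, which encodes the death-promoting protein NOXA, was 1.37-fold lower. In the stress and unfolded protein list 13 of 23 rose and 8 fell, the falls near the 37.8% of all genes. The median log2 fold change of that list was 0.15 and turned to -0.18 under library totals alone. Hspa1b, an inducible chaperone, rose 5.11-fold with a wide spread (19.6, 18.5, 25.9 and 16.3 CPM).

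Cell division genes fell almost throughout, by modest amounts. Of 35 mitosis genes 34 fell and 1 rose, with a median log2 fold change of -0.74. Mki67 went from 531, 497, 504 and 523 CPM to 239, 241, 229.7 and 202 CPM, 2.25-fold lower (adjusted p = 1.25e-13, quasi-likelihood test). Cenpf, a kinetochore protein, and Espl1, the separase that cuts sister chromatids apart, were 2.27-fold and 2.25-fold lower. Pttg1, which encodes securin, the inhibitor of separase, was the exception, at 71.5, 69.4, 64.3 and 68.4 CPM in the pool and 29.3, 27.4, 25.3 and 30.9 CPM in untreated cells, 2.42-fold higher. In bulk samples fewer dividing cells and less of these transcripts per cell cannot be told apart.

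DNA replication genes fell in 28 of 32 cases and rose in 4, with a median log2 fold change of -0.51. Mcm5 stood at 181, 180.5, 180.4 and 177 CPM in the pool and 257, 253, 264 and 261 CPM in untreated cells. Tk1, a thymidine kinase, Ung, a uracil glycosylase, and Pole, a replicative polymerase, were 2.21-fold, 1.98-fold and 1.93-fold lower, while Mcm10, a helicase activator, rose 1.53-fold to 128 ± 2.48 CPM. Of 25 repair and checkpoint genes 24 fell and 1 rose (Ercc1, an excision repair nuclease subunit, 1.57-fold, named after its value was seen). Among those that fell were Brca2 (2.12-fold lower) and the kinase Chek2 (2.101-fold lower).

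Of 35 cyclins, their kinases and inhibitors 20 fell and 10 rose, beside 37.8% and 34.1% of all genes. The inhibitor Cdkn1a went from 331, 336, 338 and 342 CPM to 699.9, 710.1, 699.7 and 709 CPM, 2.09-fold higher, and the G1 cyclin Ccnd1 rose 1.695-fold. Ccnf and the inhibitor Cdkn2c were 2.397-fold and 2.44-fold lower, and Cdk1, the mitotic kinase, 1.24-fold. Ribosome biogenesis genes fell in 18 of 26 cases and rose in 2, by small amounts (median log2 fold change -0.17). Utp20 and Ubtf, for ribosomal RNA processing and for transcription of ribosomal DNA, were 1.65-fold and 1.64-fold lower.

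Of 30 proteases and inhibitors 24 rose and 3 fell. The serpin Serpina3f, a member of a cluster of similar genes, stood at 73.6, 71.1, 74.7 and 69.3 CPM in the pool and 0.272, 0.315, 0.154 and 0.125 CPM in untreated cells. Serpinb2, an inhibitor of plasminogen activators, was at 7.104, 8.21, 7.63 and 7.95 CPM in the pool and at no more than 0.051 CPM in any untreated library. The collagenase Mmp13 rose 137-fold to 839 ± 10.4 CPM, and Timp2, an inhibitor of such enzymes, was 1.97-fold lower. In complement 6 of 11 rose and 3 fell, beside 34.1% and 37.8% of all genes. Factor B (Cfb), of the alternative pathway, and the component C3 rose 77.3-fold and 9.22-fold. C1qa and C1qc, chains of the first component of the classical pathway, were 2.75-fold and 1.91-fold lower. Among acute-phase and antimicrobial genes 8 of 9 rose, and Saa3, for serum amyloid A3, went from 15.3, 17.01, 17.7 and 17.7 CPM to 2314, 2365, 2264 and 2434 CPM.

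Of 28 chromatin enzymes 10 were raised and 14 lowered, beside 34.1% and 37.8% of all genes. Setdb2, a histone methyltransferase, rose 2.94-fold, Tet2, which oxidises methylated DNA, 2.79-fold and the deacetylase Hdac1 2.25-fold. Dnmt3a, a DNA methyltransferase, and Hdac5 were 1.798-fold and 1.94-fold lower. In the long noncoding list 7 of 19 rose and 7 fell, near those same shares. AW112010 stood at 10.5, 12.1, 12.8 and 12.5 CPM in the pool and 0.045, 0.18, 0 and 0.042 CPM in untreated cells, Neat1, the scaffold of nuclear paraspeckles, rose 2.01-fold, and Mir17hg, the host of a microRNA cluster tied to proliferation, was 1.805-fold lower. Of 7 clustered histone genes tested 1 rose and 1 fell, beside those same shares of all genes.

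Among the largest falls were also 7 genes outside the lists. Cytip, a cytoplasmic partner of the adhesion regulator cytohesin, went from 27.5, 26.7, 27.5 and 27.01 CPM to 6.296, 5.27, 6.58 and 4.86 CPM (4.72-fold lower). Lpin1, a phosphatidate phosphatase, and Dgkg, a diacylglycerol kinase, were 4.11-fold and 3.88-fold lower. The others were Tmem158 (3.803-fold lower), Treml1 (3.75-fold lower), the sialyltransferase St6gal1 (3.68-fold lower) and Asb4 (3.63-fold lower). Of these 7 genes, Cytip and Lpin1 alone passed 4-fold.

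**Figure D4:**
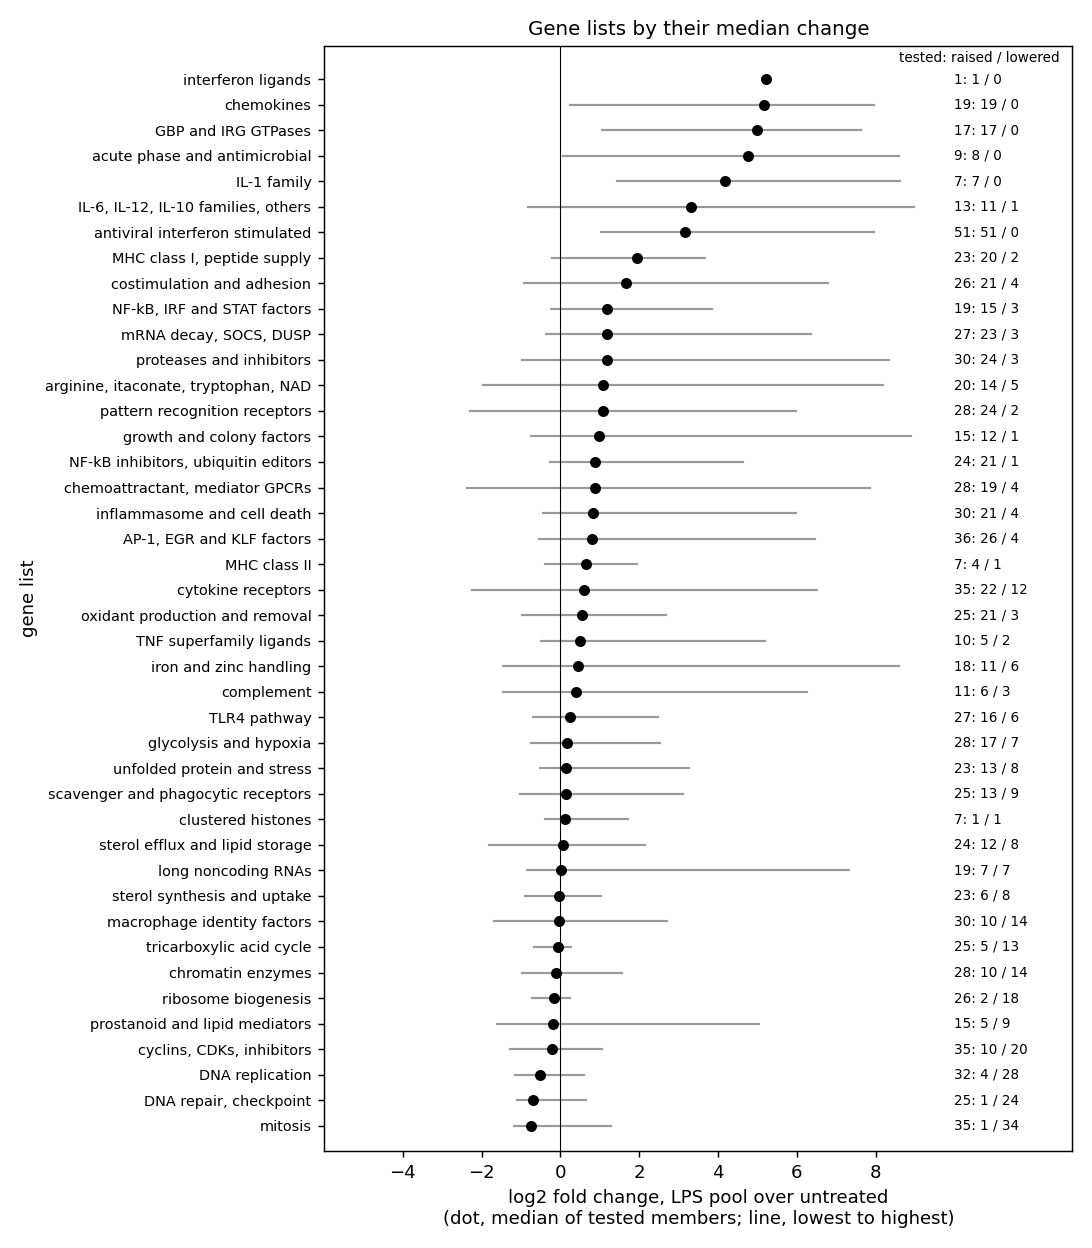
Median (dot) and range (line) of the log2 fold change of the LPS pool over untreated cells (x axis) for the tested members of 42 gene lists (y axis), 4 libraries a group; numbers at the right give members tested, raised and lowered at an adjusted p under 0.05. Medians run from 5.22 for the 1 interferon gene tested and 5.17 for chemokines to -0.74 for mitosis, and that of all genes is -0.03.

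A few transcripts went from undetected to present. With 0 reads in all 4 untreated libraries and at least 10 reads in every pool library, 6 genes met the definition, and no gene met the reverse of it. Mmp3, a stromelysin, had 55, 59, 61 and 59 reads in pool libraries 1 to 4, which is at least 79.3-fold higher against a floor of 3 reads over the untreated group (0.04 CPM). Il19, a cytokine of the interleukin-10 family, had 26, 20, 24 and 17 reads, at least 29.5-fold. Saa1, Gbp10, Wfdc18 and 1 gene identifier without a symbol made up the rest, with bounds of 24.7-fold to 34.9-fold. Such floors cover counting error alone, and these bounds use library totals without TMM scaling.

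Some of the raised genes lay side by side. In the order of tested genes along the chromosomes (RefSeq, GRCm38.p6) there were 33 runs of at least 4 neighbours that each rose at least 2-fold, and they held 198 genes, 16.2% of those raised at least 2-fold. No run of at least 4 neighbours lowered at least 2-fold was found. Fewer genes were lowered by that size (3.74% of those tested) than raised (9.72%), and the number of runs to be expected from these shares was not computed. The longest run, on chromosome 1, held 13 genes, most of them of the Ifi200 family of DNA sensors, such as Ifi214, Ifi204 and Ifi205. A run of 12 genes on chromosome 19 (11047612 to 11604804) held AW112010 and the Ms4a family of membrane proteins. On chromosome 11, 9 genes around Irgm1, Tgtp1 and Tgtp2, 9 around Ccl5, Ccl9, Ccl6, Ccl3 and Ccl4, and 7 of the Slfn family formed 3 separate runs. The Oas genes (8, chromosome 5), a group of 9 on chromosome 7 with Trim5, Trim34a and 4 Trim30 genes, the Ifit genes (6, chromosome 19) and the matrix metalloproteinases Mmp13, Mmp12, Mmp3, Mmp10 and Mmp8 (5, chromosome 9) formed others. Members of one family can share reads, and overlapping or antisense genes cannot be told apart where strand was not used in counting, so the runs are less than independent counts of genes.

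The promoters of raised genes differed in letters from those of other genes. For 9701 of the 12589 tested genes RefSeq gave a window of 250 bases before to 50 after the start. The ISRE string, in capitals in Cxcl10 and Ifit1 above, was present in 3.42% of windows of tested genes and in 3.49% of all 27025 windows of that length, but in 12.9%, 20.5% and 25% of those of genes raised at least 2-fold, 4-fold and 16-fold. It was in 18 of 43 windows of the antiviral list (41.9%). The NF-kappaB string was in 1.69% of windows of tested genes (1.62% of all) and in 6 of 32 (18.8%) of those of cytokine and chemokine genes raised at least 2-fold. The AP-1 string was in 5.01% of windows of tested genes (7.93% of all) and in 23.6% of those of genes raised at least 16-fold.

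Windows of strongly raised genes were also poor in CpG beside those of tested genes. The median number of CpG was 21 in windows of tested genes and 7 in all windows. It was 11, 5 and 3 for genes raised at least 2-fold, 4-fold and 16-fold. TATAAA was present in 7.09% of windows of tested genes (14.2% of all) against 28.6% at 16-fold. Median GC was 60.7% in windows of tested genes, 52.7% in all windows and 47.3% at 16-fold. The part of GC in the ISRE, AP-1 and TATA shares was not tested. Other strings were counted in the cell cycle lists. TTTGAA, seen in Mki67, was in 23 of 30 windows of the mitosis list (76.7%) against 12.3% of tested windows (18.1% of all). It was also in 25.6% of windows of the antiviral list and in 23.6% of those of genes raised at least 16-fold. For the mitosis list CCAAT was in 73.3% against 39.2% of tested windows (37.9% of all). TTTNNCGC, seen in Mcm5, was in 12 of 26 windows of the DNA replication list (46.2%) against 8.91% (5.27% of all). Among windows of all genes lowered at least 2-fold, TTTGAA was in 15.6%, CCAAT in 36.5% and TTTNNCGC in 8.5%. For CCAAT and TTTNNCGC this was close to the share of tested windows, and for TTTGAA it lay between those of tested and of all windows. These shares are descriptions and carry no test.

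**Figure D5:**
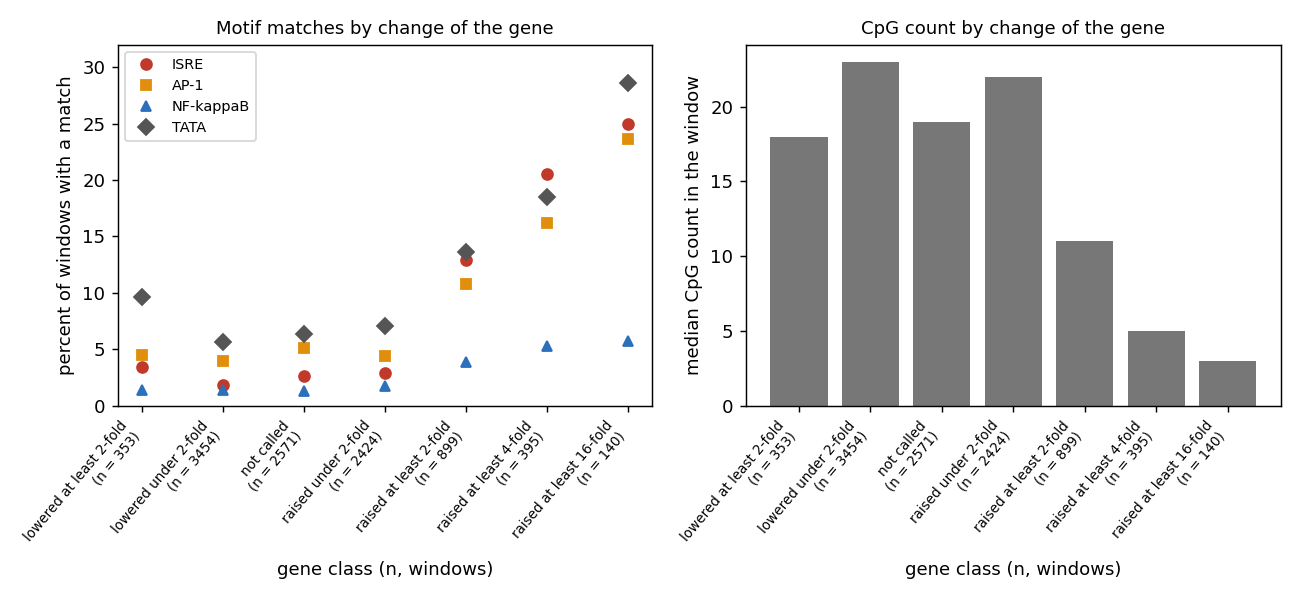
Left, percent of promoter windows of 300 bases that hold the ISRE, AP-1, NF-kappaB or TATA string on either strand (y axis); right, median number of CpG per window (y axis); both by class of the gene in the LPS pool against untreated cells (x axis, n is the number of windows). The ISRE share rises from 2.93% for genes raised under 2-fold to 25% at 16-fold, and the median CpG falls from 22 to 3; the classes of at least 2-fold, 4-fold and 16-fold are nested.

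Values of the sorted cells of the same treatment are set beside the pool for 5 genes; the comparisons share the pool libraries. Il6 stood at 752 ± 31.5 CPM in the pool, 787 ± 19.7 CPM in responders (adjusted p = 0.738) and 12.9 ± 8.08 CPM in bystanders (adjusted p = 1.97e-12; SD, n = 4 each, quasi-likelihood test against the pool throughout). Acod1 was at 5098 ± 29.2, 6335 ± 70.2 and 897 ± 55.7 CPM (adjusted p = 1.27e-06 and 2.38e-19). Ifit1 had another order, at 1299 ± 41.8, 1396 ± 40 and 2093 ± 22 CPM (adjusted p = 0.0178 and 4.23e-13), so the pool lay below both sorted groups. Why its level fell outside the range of the sorted cells was not tested. Ptgs1 was at 40.95 ± 1.76, 25.04 ± 0.541 and 87.3 ± 2.71 CPM (adjusted p = 2.64e-19 and 3.11e-35), with the pool between the sorted groups, beside an untreated level of 124 ± 2.69 CPM. Mki67 was at 228 ± 17.9, 180 ± 2.12 and 476 ± 5.65 CPM (adjusted p = 1.46e-05 and 7.09e-13), beside an untreated level of 514 ± 15.9 CPM.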

How the data were processed

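RNA sequencing was read as a deposited table of raw counts per gene (whole numbers, 27179 gene identifiers, 16 libraries), of which the 8 described were LPS pool and untreated. Per the submitters' processing notes the tools included featureCounts 2.1.1, HISAT2 2.2.2, fastp 1.1.0 and cutadapt 3.7, with builds GRCm38 and mm10. For annotation, strand and multiply mapped reads the settings were not given in the sources used here. Symbols, positions and promoters came from RefSeq tables (GRCm38.p6), which matched 25275 identifiers; the other 1904 held 0.399% of counts.

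Counts of all 16 libraries were fitted with edgeR 4.0.16 (R 4.3.3): TMM scaling, filterByExpr by group, robust quasi-likelihood fit, 1 mean per group, so that the 4 groups shared 1 estimate of the spread. The contrast was LPS pool minus untreated, with Benjamini-Hochberg adjustment over 12589 genes and a threshold of 0.05. The SE of a log2 fold change was its absolute value over the square root of the F statistic. It therefore rests on the shared spread and not on the 8 compared libraries alone. Levels are TMM-scaled CPM, which is not per length, and are compared between samples and not between genes. Summed marker levels, and the floors and bounds of genes undetected in untreated cells, are the exception and use library totals alone. The fit was run on simulated data in which 200 genes were changed, as many up as down. It recovered 75% of changes of 0.25 and 100% of changes of 1 on the log2 scale, and 5.91% of its calls were false. The changes were placed only in genes above a minimum of expected reads, with the same fixed spread for every gene. Recovery for genes of low counts was therefore not examined. The simulation held no one-sided shift in composition, so it does not speak to the scaling of these data. Alternatives were DESeq2 1.42.0, other scalings and filters, a replicate block, the 8 libraries alone, and leaving out each library; for libraries with neural transcripts, left out or used alone, the rule that sets them apart was chosen after seeing the data, as was the block on the 8 libraries alone.

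Named genes are the 15 largest rises and 15 largest falls with a mean of at least 5 CPM in the higher group and no overlap, up to 4 raised and 3 lowered genes per list at that level, a set of well-known response genes, and members of runs and of the undetected-to-present class. The comparison, the members and the lists were chosen with earlier results of these data known. A few such genes are not reported here.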

Additional observations from a re-analysis of the deposited data

Results flagged for a closer look

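Of 372 gene and group pairs for the 186 genes examined this way, 25 (6.7%) had 1 library apart from the other 3 by Dixon's criterion for 4 samples; chance gives about 1 in 20. All values are TMM-scaled CPM. In pool library 4 the high values were Il1b 2930, Ccl3 5300, Ccl4 952, Ccl5 892, Cd69 61.0 and Bcl2a1d 186, and the low ones were Cd274 157, Nos2 1080 and Pfkfb3 106. In pool library 3 S1pr1 was high at 3.60, and Gdf15 at 432, Tnf at 1880 and Fcgr4 at 286 were low. Pool library 2 was high for Il10 (4.46), and pool library 1 for Cebpa (7.05) and Steap3 (23.6).

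In untreated library 1 Il12b was at 0.045 where the other 3 were at 0. In untreated library 2 Il1rn at 294, Zc3h12a at 12 and Dnmt3a at 300 were low. In untreated library 3 Ifnb1 was at 0.103 where the other 3 were at 0, St6gal1 was high at 55.9, and Ccl17 at 0.051, Tnfrsf1b at 92.8 and Msr1 at 67.2 were low. In none of these genes did the library set apart reach the range of the other group.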

How the results depend on the processing

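Scaling by library totals alone gave 2216 raised and 8027 lowered genes, 1307 of them lowered at least 2-fold. It reversed the median log2 fold change of the lists for uptake receptors (-0.184), the TLR4 route (-0.074), glycolysis and hypoxia (-0.153), clustered histones (-0.211) and stress (-0.175), and that of Gapdh (-0.151). Counting genes of at least 5 CPM in 4 libraries left 271 lowered at least 2-fold. The median of the few clustered histones was -0.017 without a filter, -0.01 with that stricter one, -0.08 without the libraries with neural transcripts and -0.049 in those libraries alone. The neuron and glia markers gave -0.063 (stricter filter) and -0.186 (without those libraries), and the fibroblast markers -1.565 to 1.494 when 1 library was left out (the lowest without LPS pool replicate 3) and -2.172 without those libraries. Leaving out 1 library gave 4234 to 4278 raised and 4559 to 4616 lowered genes, 1237 to 1270 and 472 to 515 of them by at least 2-fold, and shares of counts of 20.137 to 20.343% (pool) and 5.169 to 5.297% (untreated). Genes raised at least 4-fold held 12.035% and 1.171%. Runs of at least 3 neighbours numbered 68 with 303 genes, and runs at 4-fold 18 with 99. A minimum of 5 reads gave 12 genes not detected in untreated cells. Arg1 also lost its call under library totals (adjusted p = 0.0817), without the libraries with neural transcripts (0.18) and in those alone (0.153), where Il16 (0.156) and Hspa1b (0.072) lost theirs too. DESeq2 called 4437 raised and 4328 lowered genes. With genes of at least 5 CPM in 4 libraries, no median could be given for the interferon, lymphocyte and epithelial lists. The causes were not tested. Same-numbered samples did not deviate together (correlations of -0.468, 0.279, -0.182 and -0.207 for numbers 1 to 4), and a fit with the replicate block called 4292 raised and 4751 lowered genes. Some samples of different number did deviate together. Pool libraries 3 and 4 correlated with untreated library 1 at 0.432 and 0.479, and all of these held neural transcripts. Pool library 2 correlated with untreated library 1 at -0.51. The source of this shared component was not tested.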
